A study of Mus musculus with 36 samples.

Results

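The cytosolic ribosomal protein genes were followed across 36 BeadChip arrays of mouse brain. Members were taken by symbol alone: every probe annotated to an Rpl or Rps gene or to the stalk genes Rplp0, Rplp1 and Rplp2, with the S6 kinases (Rps6k) left out. This gave 101 probes for 68 genes, of 45281 probes on the array. The large subunit held 55 probes for 36 genes, the stalk 5 probes for 3 genes and the small subunit 41 probes for 29 genes. The rule itself used no measured value, though it was set with earlier results of these data known.

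Adult male mice, C57BL/6J by the sample labels and C57BL/6 in the study's methods, received an inhibitor of histone deacetylases (HDACs) or its vehicle by intraperitoneal injection once a day for 10 days, and tissue was taken 1 hr after the last dose. The 4 treatments were vehicle (saline, PEG-400 and DMSO), Cpd-60 at 45 mg/kg, SAHA at 25 mg/kg and CI-994 at 10 mg/kg. Cpd-60 is a benzamide described by the study as selective for HDAC1 and HDAC2, CI-994 is also a benzamide, and SAHA (vorinostat) is a hydroxamate. From each mouse the prefrontal cortex (PFC), the nucleus accumbens (NAc) and the hippocampus (HIP) were dissected. Each array carried RNA pooled from 2 mice, with 3 pools in each of the 12 groups, and the 3 regions of a pool came from the same animals. Every group was wild type, and every mouse was injected daily, so there was no uninjected group. The p-values below measure the spread between pools, within which the 2 animals cannot be separated. The title of the second Cpd-60 pool gives mice 3 and 4 whereas its description gives mice 1 and 2, and the title was used.

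A ribosome joins a small subunit, which decodes the mRNA, to a large subunit, which forms the peptide bond and releases the chain through an exit tunnel. The P stalk on the large subunit recruits the elongation factors. Ribosomal protein mRNAs are among the most abundant in neurons and glia, and most begin with a 5′ terminal oligopyrimidine (TOP) tract that lets mTOR signalling set their translation. In neurons some of these mRNAs are also found in axons and dendrites, away from the nucleolus where subunits are assembled.

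The promoters of the members are shown because these genes share short elements around the start site, and the drugs act on chromatin. RefSeq promoters (GRCm38.p6, from 250 bases before to 50 after the start) were matched for 52 member genes with 62 promoters. A pyrimidine run CTTTC on the gene strand, between 20 bases before and 30 after the start, was present in 16 of the 62 (25.8%), against 6.57% of all 32851 promoters. The sequence CCGGAAG, the core that ETS factors such as GABP bind, was found on either strand of 24 promoters (38.7%) against 8.86% of all. TATAAA was found on either strand of 6 (9.68%) against 13.6% of all. A match of letters is no proof of a site. Below are 90 bases, 60 before and 30 after the start, of 4 members named in the drug comparisons, with CTTTC near the start or CCGGAAG on either strand in capitals. Rpl39 lies on the minus strand at chrX:37085193-37085282, Rpl26 on the plus strand at chr11:68901506-68901595, Rps25 on the plus strand at chr9:44407654-44407743 and Rpl24 on the plus strand at chr16:55966215-55966304.
Rpl39: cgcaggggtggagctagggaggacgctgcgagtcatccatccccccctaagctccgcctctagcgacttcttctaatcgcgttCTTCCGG
Rpl26: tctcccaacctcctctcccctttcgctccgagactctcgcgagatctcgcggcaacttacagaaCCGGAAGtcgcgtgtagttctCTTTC
Rps25: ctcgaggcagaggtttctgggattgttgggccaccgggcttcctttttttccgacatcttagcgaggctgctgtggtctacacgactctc
Rpl24: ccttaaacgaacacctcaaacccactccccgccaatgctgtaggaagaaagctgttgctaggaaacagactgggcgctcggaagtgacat
The stretches of Rps25 and Rpl24 held neither element, and those of Rpl39 and Rpl26 held the ETS core within 30 bases after the start.

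A probe was tested in a region when its detection p was at most 0.2 on all 3 arrays of at least 1 group there. Of the 101 member probes, 90 were tested in at least 1 region, 84 in all 3 and 11 in none, and 76 had a detection p of at most 0.01 on all 36 arrays. Rpl14, Rpl17, Rpl39l, Rpl6 and Rps20 had no tested probe. The tested members numbered 85 probes for 61 genes in PFC, 88 for 62 in NAc and 87 for 61 in HIP, among 22156, 23242 and 23275 probes in all. The labelled regions carried their markers: 8 of 8 striatal markers were highest in NAc, 6 of 7 cortical markers in PFC (Neurod2 was highest in HIP) and 4 of 5 hippocampal markers in HIP (Wfs1 was highest in NAc).

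Raw member levels followed the brightness of the array. The raw 95th percentile intensity, used here as brightness, ran from 349.9 to 1079.7 over the 36 arrays, and the share of probes detected from 31.87% to 43.33%. The median raw level of the 84 members tested everywhere ran from 10.28 to 11.86 on the log2 scale, a span of 1.58, and in all 3 regions the brighter arrays had the higher raw member level. After quantile normalization the same median spanned 0.55 over all arrays, from 10.82 to 11.07 in PFC, 11.10 to 11.32 in NAc and 10.96 to 11.38 in HIP. The dimmest HIP arrays were those of SAHA pools 2 and 3 (437.7 and 452), against 686.4 to 839.6 in the vehicle pools. All levels below are log2 quantile normalized intensity, on which 1 unit is a 2-fold difference, and levels of different probes are not set against each other.

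**Figure D1:**
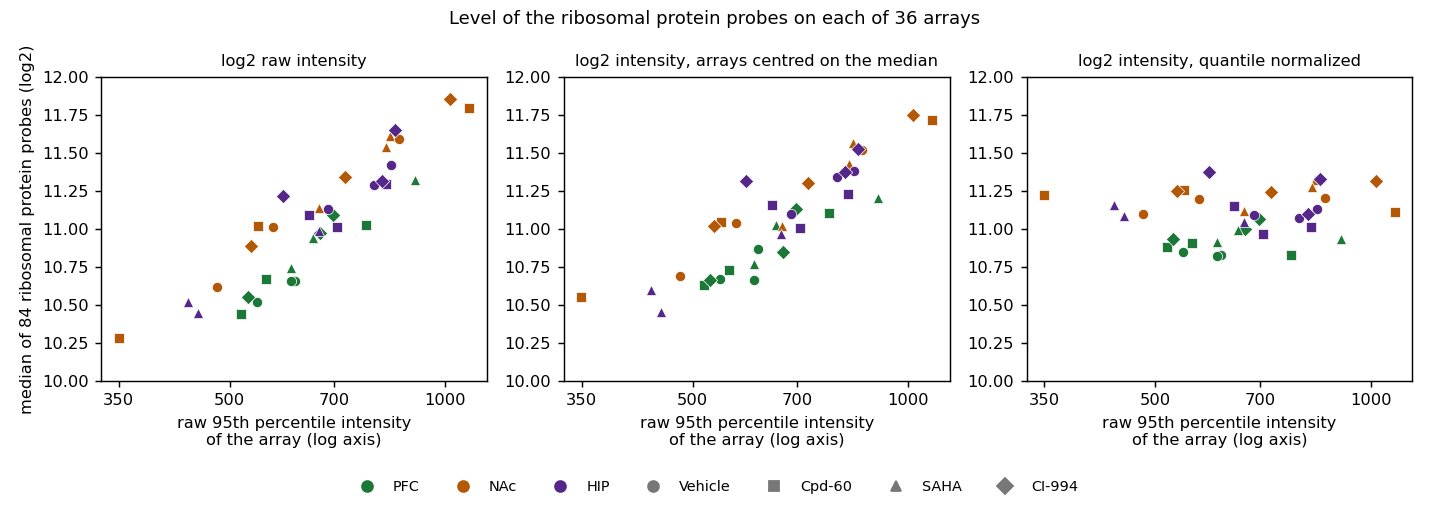
Median level of the 84 ribosomal protein probes (log2, vertical axes) against the raw 95th percentile intensity (log horizontal axis) of each of 36 arrays, with 1 point per array, colour for region and marker for treatment. Raw medians (left) climb with brightness from 10.28 to 11.86, arrays centred on the median (middle) climb alike, and quantile normalized medians (right) stay between 10.82 and 11.38.

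The 2 BeadChips of NAc differed in many ribosomal protein probes. Each region was run on 2 BeadChips of 6 arrays, the first with vehicle and Cpd-60 pools 1 and 2 and pool 1 of SAHA and CI-994, the second with the remaining pools. In a fit with treatment in the model, added after the data had been seen, 18 of 88 members for 16 genes were higher on the second NAc BeadChip at an adjusted p under 0.05, beside 11.6% of all probes, and 19 for 17 genes were lower, beside 11.3%. In PFC no member passed in either direction (0.144% of all probes higher, 0% lower). In HIP 0 members were higher (0.163%) and 2 were lower (1.03%).

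The steps in NAc fell on proteins of both subunits. One of the Rps3 probes (ILMN_2637639; chr7:99477896-99483709), for a small-subunit protein at the mRNA entry site that also takes part in DNA repair, stepped by 1.55 ± 0.094 (SE; limma, adjusted p = 7.2e-07), from a mean of 8.39 to 9.88. The other Rps3 probe (ILMN_2594103) stepped by 0.29, from 11.16 to 11.40. The probe of Rps3a, now named Rps3a1, a small-subunit protein near the mRNA exit site, read 7.09 to 7.44 on the 6 arrays of the first NAc BeadChip and 8.58 to 8.88 on the 6 of the second, a step of 1.45 ± 0.069 (adjusted p = 1.4e-07). Every array of the second BeadChip was above every array of the first, whatever its treatment. Smaller steps up were measured for Rpl39 (0.78), which lines the exit tunnel, Rpl26 (0.71), a large-subunit protein that also binds p53 mRNA, Rpl32 (0.54), Rpl36a (0.47) and the paralog Rpl22l1 (0.37). The largest step down was at a probe of Rps2 (ILMN_2946616; −0.49, 12.44 to 11.97), which lies on the mRNA path. Rps9, Rpl18, Rpl9, Rps19 (ILMN_2862280), Rps6, Rps26 and Rps13 (ILMN_2940017) were lower by 0.30 to 0.34. The other probes of Rps19 (ILMN_2754355) and Rps13 (ILMN_2482591) differed by 0.0010 and 0.018.

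Rps3a had no step that passed in PFC and stepped the other way in HIP. Rps3a averaged 6.94 and 7.04 in PFC and 8.68 and 8.06 in HIP (−0.62, adjusted p = 5.9e-04). Its second NAc BeadChip, at a mean of 8.75, was nearer to those of HIP and the first, at 7.27, nearer to those of PFC. The arrays of both NAc BeadChips came from the same pools as the PFC and HIP arrays.

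**Figure D2:**
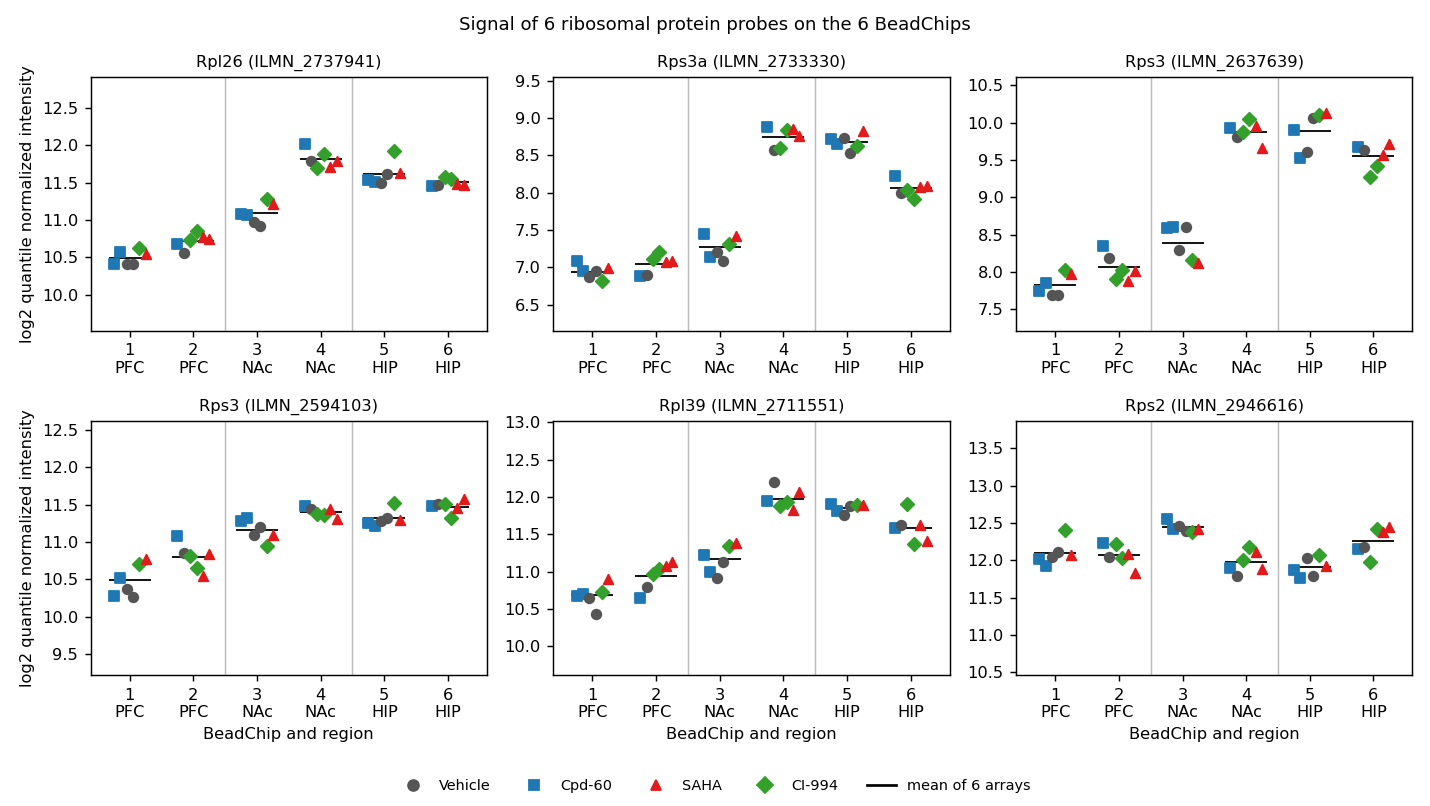
Log2 quantile normalized intensity of 6 ribosomal protein probes (vertical axes) on the 6 BeadChips (horizontal axis, 2 per region), with 1 marker per array by treatment and a line at the mean of the 6 arrays of each BeadChip. Rps3a reads 7.09 to 7.44 on the first NAc BeadChip and 8.58 to 8.88 on the second in all treatments, and Rps2 goes the other way.

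Among the vehicle arrays the members were more often higher than lower in HIP and NAc relative to PFC. Of 84 members, 20 were higher in HIP than in PFC at an adjusted p under 0.05 (12.6% of all 19447 probes) and 1 was lower (13.5%). Against PFC, 23 were higher in NAc (8.62%) and 1 was lower (11%). Between HIP and NAc, 4 were higher in HIP (7.54%) and 2 were lower (9.28%). The median member difference was 0.051 for HIP minus PFC (all probes −0.039), 0.144 for NAc minus PFC (all probes −0.0097) and −0.042 for HIP minus NAc. Each region lay on BeadChips of its own, so region and BeadChip cannot be told apart, and in such bulk tissue fewer cells of a type and less RNA per cell cannot be told apart either.

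Probes with a large step also differed between HIP and PFC. The Rps3 probe ILMN_2637639 read 9.60, 10.06 and 9.64 in the vehicle HIP pools and 7.70, 7.69 and 8.19 in PFC, a difference of 1.91 (adjusted p = 0.0018). Rps3a read 8.73, 8.53 and 7.996 in HIP and 6.87, 6.95 and 6.90 in PFC (1.51, adjusted p = 0.0073). Rpl39 read 11.75, 11.88 and 11.62 in HIP and 10.64, 10.43 and 10.80 in PFC, a difference of 1.13 (adjusted p = 0.0012). None of these 3 overlapped between the regions. The member lower in HIP was Rps15, a small-subunit head protein, at 11.14, 11.14 and 11.09 against 11.60, 11.64 and 11.42 (−0.43, adjusted p = 0.0070).

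Other differences between regions were seen at probes with smaller NAc BeadChip steps, and at Rpl39 and Rpl26, which had large ones. Smaller steps at an adjusted p under 0.05 were those of Rpl22 (−0.19), Rpl7a (0.28), Rps3 ILMN_2594103 (0.29) and Rpl31 ILMN_3152328 (0.24). Rpl3, which reaches towards the peptidyl transferase centre, read 12.65, 12.61 and 12.65 in NAc and 11.86, 11.82 and 12.11 in PFC (0.71, adjusted p = 0.0019). Rpl22, an RNA-binding large-subunit protein, read 9.15, 8.98 and 8.85 in NAc, below 9.37, 9.45 and 9.36 in PFC (−0.40, adjusted p = 0.0023) and below 9.43, 9.53 and 9.76 in HIP (0.58 higher in HIP, adjusted p = 3.2e-05). NAc was thus the region of lowest Rpl22 signal, with no overlap. Rpl31, a protein at the exit of the tunnel, was lower in HIP than in NAc at 2 of its 3 probes, by 0.60 at ILMN_1221124 (adjusted p = 8.2e-05) and by 0.46 at ILMN_3073486 (adjusted p = 9.3e-05). The remaining probe, ILMN_3152328, differed by −0.26 (adjusted p = 0.107). Rpl7a, Rps27a (ILMN_3046846) and Rpl38 (ILMN_2594971) were higher in HIP than in NAc by 0.43, 0.34 and 0.29. The other Rpl38 probe (ILMN_3135931) went the other way. Over all treatments it averaged 13.00 and 13.13 on the HIP BeadChips and 13.25 and 13.24 on those of NAc. In NAc against PFC, Rpl39 and Rpl26 were higher by 0.79 and 0.77, and the vehicle pool on the second NAc BeadChip read highest: Rpl39 read 10.91, 11.12 and 12.20 and Rpl26 read 10.97, 10.92 and 11.80. Without pool 3 the differences were 0.48 and 0.53. The second Rps3 probe (ILMN_2594103) was higher in NAc by 0.75 (adjusted p = 8.3e-04).

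The vehicle HIP to PFC difference and the step between the NAc BeadChips, which have no array in common, ran alike over the members. Across the 84 probes Pearson's r was 0.914 and Spearman's rho 0.702, and 59 (70.2%) had the same sign. Over the 79 members with a step of at most 0.6, r was 0.707. Over all 19447 probes r was 0.708, rho was 0.592 and 73.4% had the same sign. Probes share arrays and are not independent replicates, so no p is given. The 15 members that passed in both had the same sign in both, and they were 71.4% of the 21 that passed for region and 40.5% of the 37 that passed for BeadChip. Among all probes the 2303 that passed in both were 45.4% and 46.8% of the respective lists, and 2245 of them had the same sign. The part of tissue or array handling in this pattern was not tested.

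**Figure D3:**
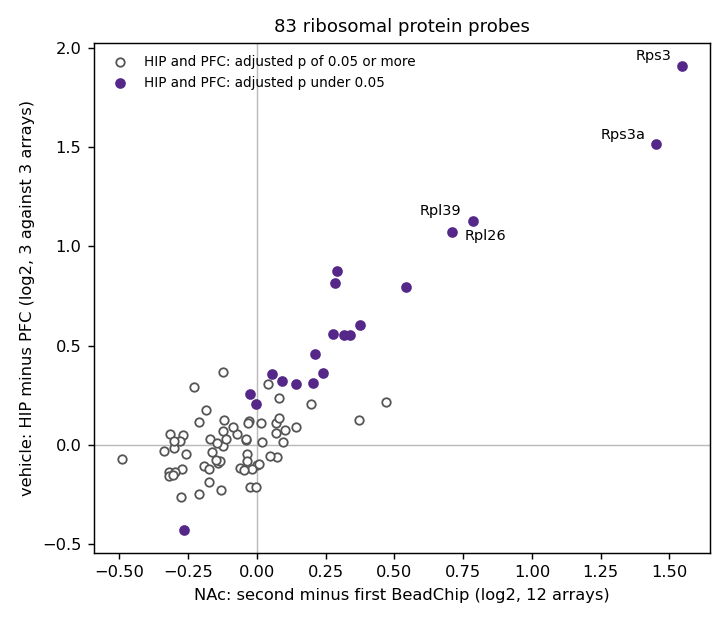
Vehicle HIP minus PFC difference (log2, vertical axis, 3 against 3 arrays) against the step from the first to the second NAc BeadChip (log2, horizontal axis, 12 arrays), with 1 point for each of 83 ribosomal protein probes, filled where the region difference had an adjusted p under 0.05. Rps3a, one Rps3 probe, Rpl39 and Rpl26 lie to the upper right, and the 79 points with a step of at most 0.6 form a cloud around 0 (r = 0.707).

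The drug comparisons asked whether repeated HDAC inhibition moved ribosomal protein mRNAs in each region. No member passed an adjusted p of 0.05 in any of the 9 comparisons by limma, and neither did any other probe. The smallest adjusted p of a member was 0.502, in HIP after SAHA. Counts below are therefore at an unadjusted p under 0.05, and none of these members is called changed. The 3 drugs share the vehicle arrays and were given at different doses, so their values stand side by side and were not compared with each other.

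Under Cpd-60 the median member difference was near 0 in PFC and NAc and slightly below 0 in HIP. In PFC 0 members were higher (2.5% of all probes) and 2 lower (2.69%). In NAc 2 were higher (2.07%) and 1 lower (2.7%). In HIP 1 was higher (2.37%) and 6 were lower (2.89%). The median member difference was 0.012, 0.012 and −0.035 in PFC, NAc and HIP, and 49 of 85 (57.6%), 46 of 88 (52.3%) and 30 of 87 (34.5%) members were above 0, beside 48.7%, 48.4% and 49.2% of all probes. Of the 84 members tested in every region, 13 were above 0 in all 3 regions (15.5%, beside 18.6% of all probes) and 17 below (20.2%, beside 21.1%). All 3 treated pools lay above all 3 vehicle pools for 1 member in PFC (4.87%), 5 in NAc (4.26%) and 2 in HIP (5.78%), and below for 4 (4.81%), 4 (5.12%) and 11 (6.43%).

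The Cpd-60 members named here, picked by size of difference, came from both subunits, and Rpl24 and a dim Rplp2 probe are given further below. In HIP the median difference was −0.035 over the large-subunit and −0.045 over the small-subunit members, with 16 of 47 and 12 of 37 above 0. Rps25 (chr9:44407714-44410406), a small-subunit protein needed for initiation at some internal ribosome entry sites, read 10.64, 10.59 and 10.65 in the vehicle PFC pools and 10.17, 10.50 and 10.15 after Cpd-60, a difference of −0.35 ± 0.097 (SE; limma, adjusted p = 0.735). The groups did not overlap, and pool 2 lay nearest to vehicle. In HIP, Rps19 (ILMN_2862280), which is needed for 18S rRNA maturation and is mutated in Diamond-Blackfan anaemia, read 12.26, 12.41 and 12.19 in vehicle and 11.92, 11.83 and 12.10 after Cpd-60 (−0.34 ± 0.091, adjusted p = 0.814). The Rps27a probe ILMN_3046846, for the small-subunit protein made as a fusion with ubiquitin, read 9.33, 9.16 and 9.35 in vehicle HIP and 9.02, 8.95 and 8.93 after Cpd-60 (−0.32 ± 0.083, adjusted p = 0.814). Neither probe overlapped between the groups. Rps12 was lower in HIP by 0.22 (adjusted p = 0.942), with pool 3 at 12.12 and the other two at 12.40 and 12.49. In NAc, Rpl19 (10.02, 10.10 and 10.16 in vehicle) read 10.29, 10.16 and 10.41 after Cpd-60, higher by 0.20 (adjusted p = 0.999). Cpd-60 and vehicle were balanced over the BeadChips, and a BeadChip term left the Rps25, Rps19 and Rps27a differences at −0.35, −0.34 and −0.32.

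Under SAHA more members lay above than below vehicle in PFC and NAc, and in HIP the share above it was near that of all probes. In PFC 3 were higher (1.21% of all probes) and 1 lower (1.05%). In NAc 2 were higher (0.826%) and 1 lower (1.23%). In HIP 6 were higher (4.04%) and 5 lower (5.33%). The median was 0.015, 0.053 and −0.025, beside 0.00084, −0.0012 and −0.0081 over all probes. Members above 0 numbered 54 of 85 (63.5%), 58 of 88 (65.9%) and 38 of 87 (43.7%), beside 50.4%, 49.5% and 47.1% of all probes. Of the 84, 12 were above 0 in all 3 regions (14.3%, beside 11.5% of all probes) and 2 below (2.38%, beside 13.3%). Members with all treated pools above all vehicle pools numbered 4 in PFC (4.41%), 5 in NAc (3.37%) and 7 in HIP (8.45%), and below 3 (4.27%), 1 (3.73%) and 15 (10.8%). SAHA and vehicle were not balanced over the BeadChips. A BeadChip term in the fit gave medians of 0.027, 0.055 and −0.0017 in PFC, NAc and HIP. Members above 0 were then 55 of 85, 62 of 88 and 43 of 87.

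Rpl39 (chrX:37082518-37085222) was the member with the smallest p in PFC after SAHA. It read 10.64, 10.43 and 10.80 in vehicle and 10.90, 11.07 and 11.13 after SAHA, a difference of 0.41 ± 0.10 (adjusted p = 0.9999), and 0.35 ± 0.083 with the BeadChip in the fit. Rps25 in PFC was again below vehicle, at 10.28, 10.45 and 10.33 (−0.27 ± 0.097). In HIP the same probe was higher by 0.29, with overlapping groups. Rpl24 (chr16:55966275-55971437), a large-subunit protein at the bridge to the small subunit, read 10.82, 10.84 and 10.94 in the vehicle HIP pools and 11.09, 11.18 and 11.20 after SAHA (0.29 ± 0.070, adjusted p = 0.502). Rps27a (ILMN_3046846) read 9.12, 8.95 and 8.96 in HIP after SAHA, lower by 0.28 ± 0.083 (adjusted p = 0.502). Rplp1, a stalk protein, read 13.33, 13.57 and 13.50 in vehicle and 13.24, 13.22 and 13.24 after SAHA (−0.23 ± 0.082, adjusted p = 0.502). All 3 SAHA pools lay below vehicle for Rps27a and Rplp1 and above it for Rpl24. Also in HIP, Rps15a and Rplp0 were higher by 0.29 and 0.21, and a Rpl31 probe (ILMN_3152328) and Rps27l, the paralog of Rps27, were lower by 0.33 and 0.31. With the BeadChip in the fit Rps15a and Rplp0 were higher by 0.24 and 0.20 and the Rpl31 probe and Rps27l lower by 0.31 and 0.28. Of these, only the Rpl31 probe then kept an unadjusted p under 0.05. In NAc, Rpl23 (ILMN_1238227) and Rps16 were higher by 0.31 and 0.29.

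The SAHA result in HIP depended on the scaling. With arrays aligned only at their medians, 45 of 87 members were lower after SAHA at an adjusted p under 0.05 and 0 were higher, beside 13.9% of all probes lower. The member median was then −0.515, against −0.189 for all probes, and 2 members were above 0. With quantile normalization or with a background correction whose negative controls were inferred from the detection p-values (neqc), 0 members passed and the median was −0.025 and −0.042. The median-aligned member level on the SAHA pools was 10.97, 10.60 and 10.45, in which pools 2 and 3 are the dim arrays, against 11.38, 11.34 and 11.10 in vehicle. Quantile normalized, the SAHA pools were at 11.05, 11.16 and 11.08 and the vehicle pools at 11.13, 11.07 and 11.10, which overlap. In the quantile normalized fit without SAHA pools 2 and 3, which left pool 1 alone in that group, Rps27a was lower by 0.17 ± 0.116. In the other 8 comparisons 0 members passed under all 3 scalings.

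Under CI-994 most members lay above vehicle by a small amount in all 3 regions. The median difference was 0.075 in PFC, 0.050 in NAc and 0.074 in HIP, beside −0.00025, 0.00014 and 0.0029 over all probes. Members above 0 numbered 69 of 85 (81.2%), 63 of 88 (71.6%) and 69 of 87 (79.3%), beside 49.9%, 50.1% and 51.5% of all probes. At an unadjusted p under 0.05, 9 were higher (2.21%) and 1 lower (1.77%) in PFC, 4 higher (0.822%) and 0 lower (1.17%) in NAc and 5 higher (1.74%) and 1 lower (1.5%) in HIP. All treated pools lay above all vehicle pools for 16 members in PFC (5.76%), 5 in NAc (3.61%) and 6 in HIP (4.98%), and below for 1 (4.94%), 3 (4%) and 0 (4.6%). Members above 0 came from both subunits: in HIP 33 of 47 large-subunit, 33 of 37 small-subunit and 3 of 3 stalk probes were above 0, and in PFC 37 of 45, 30 of 37 and 2 of 3. In NAc 38 of 47, 22 of 37 and 3 of 4 were above 0. Of the 84, 44 were above 0 in all 3 regions (52.4%, beside 14.9% of all probes) and 3 below (3.57%, beside 14.7%).

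Pool by pool, the median member level in PFC was 10.83, 10.85 and 10.82 in vehicle and 10.93, 10.999 and 11.07 after CI-994. In NAc it was 11.10, 11.20 and 11.20 in vehicle and 11.32, 11.25 and 11.25 after CI-994, and in HIP 11.13, 11.07 and 11.10 against 11.38, 11.33 and 11.10. The pools did not overlap in PFC and NAc and overlapped in HIP through CI-994 pool 3. The median is a summary of chosen genes and carries no test. CI-994 and vehicle were not balanced over the BeadChips. Within the first and second BeadChip the median difference was 0.074 and 0.108 in PFC, 0.127 and 0.0078 in NAc and 0.082 and 0.069 in HIP. Each first-BeadChip value rests on 1 CI-994 array. Its raw 95th percentile was 529.6 in PFC (vehicle 617.5 and 546.5), 1015.1 in NAc (480.5 and 575.3) and 593.6 in HIP (839.6 and 794.5). On the second BeadChip the CI-994 arrays of NAc were at 725.2 and 535.5, below vehicle at 861.2. Those of PFC and HIP were brighter than vehicle. With the BeadChip in the fit the medians were 0.086, 0.062 and 0.066, and 64 of 85, 68 of 88 and 69 of 87 members were above 0. In NAc the median ran from −0.011 without CI-994 pool 1 to 0.072.

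**Figure D4:**
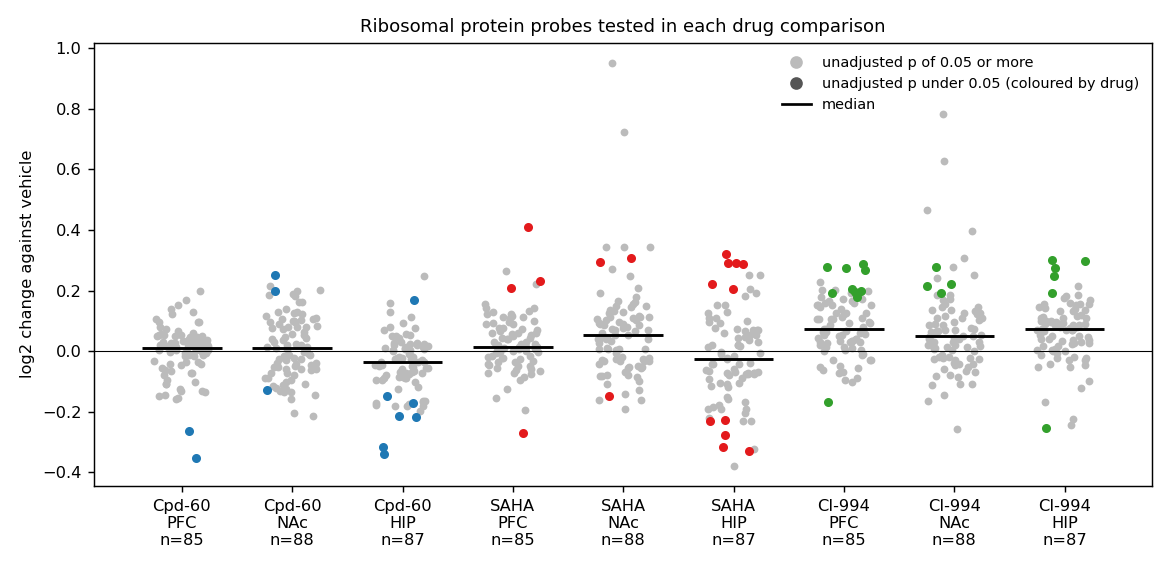
Log2 change against vehicle (vertical axis) of each ribosomal protein probe tested in each of the 9 drug comparisons (horizontal axis, 85, 88 or 87 points each), coloured by drug where the unadjusted p was under 0.05 and grey otherwise, with the median as a bar and a line at 0. The medians run from −0.035 to 0.012 for Cpd-60, from −0.025 to 0.053 for SAHA and from 0.050 to 0.075 for CI-994.

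The CI-994 members with the smallest p were spread over both subunits. In PFC, Rps10, a protein of the small-subunit head, read 11.21, 10.94 and 11.07 in vehicle and 11.35, 11.39 and 11.31 after CI-994 (0.27 ± 0.073, adjusted p = 0.9997). Rpl26 (chr11:68901566-68904534) read 10.42, 10.41 and 10.55 in vehicle and 10.63, 10.73 and 10.86 after CI-994 (0.28 ± 0.091), and 0.22 with the BeadChip in the fit. Rps26, at the mRNA exit site, was higher by 0.27 ± 0.084. In these 3 genes every CI-994 pool lay above every vehicle pool. In NAc, Rpl19 read 10.29, 10.33 and 10.32 after CI-994, higher by 0.22 ± 0.073. Rpl24 was higher there by 0.19, from 11.09, 11.06 and 11.09 to 11.25, 11.31 and 11.26. In HIP, Rpl18 read 11.08, 10.79 and 10.98 in vehicle and 11.37, 11.23 and 11.16 after CI-994 (0.30 ± 0.093, adjusted p = 0.9998). The member wholly below vehicle in PFC was a dim probe of Rps19 (ILMN_2754355), by 0.17, and the 3 in NAc were Rps21 (−0.079), Rpl23 (ILMN_2946482; −0.15) and the dim Rplp2 probe (ILMN_2924140; −0.11).

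Rpl24 and Rps27a had an unadjusted p under 0.05 in HIP for all 3 drugs, which share 3 vehicle arrays there. The share of all probes with such a p for all 3 drugs was not counted, so this is not read as a result about these genes. Rpl24 read 11.07, 11.02 and 11.01 after Cpd-60 (0.17 ± 0.070, adjusted p = 0.934) and 11.28, 11.17 and 11.03 after CI-994 (0.30 ± 0.070, adjusted p = 0.9998), each pool above the highest vehicle pool at 10.94. The Rpl24 difference was above 0 in all 9 comparisons, from 0.0076 to 0.30, and the share of all probes above 0 in all 9 was not counted. Rps27a (ILMN_3046846) after CI-994 read 9.18, 9.01 and 8.90, lower by 0.25 ± 0.083, and pool 1 overlapped vehicle. The other Rps27a probe, ILMN_3122437, which had a detection p over 0.01 on all 36 arrays, differed by 0.011 (Cpd-60), −0.017 (SAHA) and 0.112 (CI-994) in HIP.

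**Figure D5:**
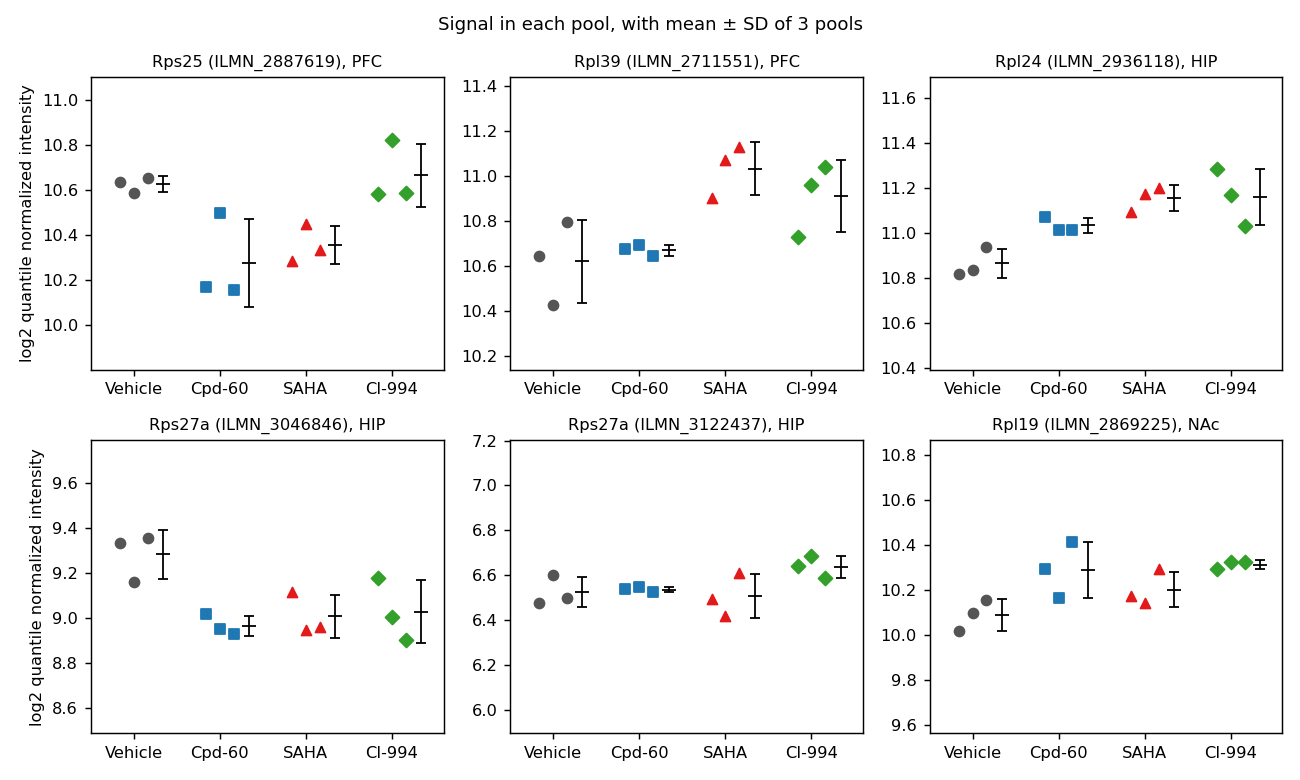
Log2 quantile normalized intensity (vertical axes) of 6 named ribosomal protein probes in single regions, with 1 point per pool for vehicle, Cpd-60, SAHA and CI-994 (horizontal axes) and the mean ± SD of 3 pools. Rpl24 in HIP lies above the vehicle pools in the 9 treated pools, and the Rps27a probe in HIP lies below them in 8 of 9.

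Whether a drug's effect differed between regions was tested with a drug by region F test. At an unadjusted p under 0.05 it picked 2 of 84 members for Cpd-60 (1.97% of all probes), 5 for SAHA (3.75%) and 2 for CI-994 (1.3%), and 0 at an adjusted p under 0.05 (smallest 0.99956). Rps27a (ILMN_3046846) was picked for each drug. Its difference in HIP lay below that in PFC by 0.27, 0.32 and 0.36 for Cpd-60, SAHA and CI-994, and the 3 tests share vehicle arrays. The share of all probes picked for each of the 3 drugs at once was not counted. The other members picked were Rps12 for Cpd-60, Rps16, Rpl4, Rpl24 and a Rpl31 probe (ILMN_3152328) for SAHA, and the dim Rps19 probe for CI-994. Rps25, below vehicle in PFC and above it in HIP after SAHA, was not picked.

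In NAc the BeadChip step entered the drug differences of the probes that carried it. Rps3a read 7.21, 7.09 and 8.58 in the vehicle pools, 7.44, 7.14 and 8.88 after Cpd-60, 7.42, 8.86 and 8.76 after SAHA and 7.32, 8.59 and 8.84 after CI-994. The values above 8 are those of the second BeadChip, which held 1 vehicle and 1 Cpd-60 array and 2 arrays each of SAHA and CI-994. The difference from vehicle was 0.72 ± 0.60 (SE) for SAHA and 0.63 ± 0.60 for CI-994, and with the BeadChip in the fit 0.24 ± 0.095 (adjusted p = 0.9998) and 0.14 ± 0.095 (adjusted p = 0.9999). For Cpd-60, balanced over the BeadChips, it stayed at 0.20, with an SE of 0.60 without and 0.092 with the BeadChip (adjusted p = 0.618). The differences of the Rps3 probe ILMN_2637639 for SAHA and CI-994 went from 0.34 and 0.46 to −0.17 and −0.05.

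Members followed for their roles showed small differences. Rps6, the target of the S6 kinases, was higher in HIP after SAHA by 0.22 ± 0.088 (adjusted p = 0.515) and after CI-994 by 0.25 ± 0.088 (adjusted p = 0.9998). Rplp0 ranged from −0.028 to 0.21 over the 9 comparisons, Rplp1 from −0.23 to 0.13, and the brighter Rplp2 probe (ILMN_2924136) from −0.22 to 0.15. The dim Rplp2 probe (ILMN_2924140), tested in NAc alone, was below vehicle in all 3 comparisons there, by 0.13 after Cpd-60 and 0.15 after SAHA. Rpl13a, often taken as a reference gene, was lower in PFC after Cpd-60 by 0.26, with overlapping groups (adjusted p = 0.923), and otherwise ran from −0.18 to 0.15. Rpl22 ran from −0.08 to 0.11 and its paralog Rpl22l1 from −0.15 to 0.13, both without an unadjusted p under 0.05. Rpl3 ran from −0.20 to 0.25, Rps4x from −0.04 to 0.16, and the paralogs Rpl7l1 from −0.26 to 0.13 over 2 probes and Rps27l from −0.31 to 0.20. Rpl3l, the muscle paralog of Rpl3, was tested in 3 comparisons and ran from −0.16 to −0.08. Rpl5, Rpl10, Rpl11 and Rpl10l were not analysed here.

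Probes of 1 gene did not always go the same way. Of 20 genes with over 1 tested probe, 18 had at least 2 tested in all regions, and in 67 of their 162 gene-by-comparison pairs the probes had both signs. Rpl23 in NAc under Cpd-60 ran from −0.21 to 0.25 over 3 probes. Ribosomal protein genes have many processed pseudogenes of near-identical sequence, so a probe may also report other copies.

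The wider translation machinery had no gene at an adjusted p under 0.05 in any comparison either. The mitochondrial ribosome (73 genes listed, 67 or 68 tested) had medians of −0.046, −0.054 and −0.098 under Cpd-60 in PFC, NAc and HIP, with 19, 18 and 13 genes above 0. At an unadjusted p under 0.05, 4, 2 and 9 of its genes were lower, beside 2.69%, 2.7% and 2.89% of all probes, and 0 were higher. Its summed level overlapped vehicle in PFC (15.15 to 15.30 against 15.27 to 15.28) and NAc (15.20 to 15.27 against 15.25 to 15.38) and lay below it in HIP (15.10 to 15.25 against 15.27 to 15.34). Under CI-994, 52, 26 and 46 of them were above 0 with medians of 0.039, −0.020 and 0.064, and under SAHA 32, 27 and 34. Of the 8 elongation factor genes 6, 4 and 6 were above 0 under CI-994, 2, 4 and 2 under Cpd-60 and 4, 6 and 2 under SAHA. Of the 21 initiation factor genes tested 12, 14 and 14 were above 0 under CI-994, 11, 9 and 13 under Cpd-60 and 6, 12 and 10 under SAHA. Other TOP mRNAs (16 or 17 genes tested) had 11, 12 and 12 above 0 under CI-994, 6, 8 and 7 under Cpd-60 and 3, 11 and 6 under SAHA. Ribosome biogenesis and RNA polymerase I (18 or 19 genes) had 11, 15 and 12 under CI-994, 5, 3 and 8 under Cpd-60 and 11, 13 and 11 under SAHA. Of 9 or 10 regulators of TOP mRNAs 5, 3 and 5 were above 0 under CI-994, 4, 5 and 5 under Cpd-60 and 5, 5 and 3 under SAHA. Of 3 or 4 ribosomal and fusion genes outside the symbol rule, 2, 3 and 2, then 0, 1 and 0, then 0, 1 and 0 were above 0 for CI-994, Cpd-60 and SAHA.

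Markers of other cells also differed from vehicle in some comparisons, none at an adjusted p under 0.05. Of 3 blood genes tested, 0 were above vehicle in any of the 9 comparisons, with medians from −0.65 to −0.079. Under CI-994, Hbb-b1 was lower by 0.58, 0.65 and 0.60 in PFC, NAc and HIP and Hba-a1 by 0.51, 0.89 and 0.78. Their summed level with the remaining blood gene was 13.22 to 13.84 in vehicle and 12.95 to 13.27 after CI-994 in PFC, 12.98 to 13.49 and 12.15 to 13.22 in NAc, and 13.03 to 13.26 and 12.40 to 12.48 in HIP, where the groups did not overlap. Of 7 oligodendrocyte genes 0 were above 0 in HIP after SAHA (median −0.23, summed level 14.44 to 14.58 against 14.65 to 14.81 in vehicle) and 0 after CI-994 (median −0.21, 14.50 to 14.65), and of 8 choroid plexus genes 1 was above 0 after each. Oligodendrocyte genes went the other way in PFC after SAHA, with 7 of 7 above 0 (median 0.21). After Cpd-60 6 of 7 were above 0 in PFC and in NAc (medians 0.13 and 0.12). In NAc after CI-994 1 of 7 was (median −0.19). In NAc, choroid plexus genes were above 0 for 8 of 8 after Cpd-60 and SAHA. In HIP after Cpd-60, where members lay lower, the summed astrocyte level was 13.76 to 13.86 against 13.59 to 13.67 in vehicle and that of blood 12.72 to 13.01 against 13.03 to 13.26. In HIP after SAHA the microglia level was below vehicle (11 to 11.06 against 11.13 to 11.23) and the endothelial level above it (10.85 to 10.86 against 10.76 to 10.84), and in NAc after SAHA astrocytes (13.43 to 13.57 against 13.17 to 13.40) and choroid plexus (10.35 to 10.77 against 10.11 to 10.28) were above it. Blood lay below vehicle without overlap after SAHA in all 3 regions. Median differences of the astrocyte list lay from −0.046 to 0.19, of microglia from −0.14 to 0.066, of endothelium from −0.071 to 0.028, and of neurons from −0.076 to 0.14. The cortical, striatal and hippocampal lists had medians from −0.16 to 0.053, −0.26 to 0.092 and −0.013 to 0.094. The part of cell makeup in the member differences was not tested.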

How the data were processed

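Per the labels RNA was extracted with Trizol and cleaned up with an RNeasy kit, whereas the study's methods name an RNeasy lipid tissue kit. It was treated with DNase, amplified and biotinylated, and hybridised to Illumina mouse BeadChips. The authors deposited non-normalized intensity values with a detection p-value per probe and array, which were used here; the software that wrote the table is not given in the sources used here. The study's methods describe quantile normalization, a presence filter and ANOVA with Tukey's HSD in GeneSpring. Groups came from the sample titles.

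The 36 arrays were quantile normalized together, floored at 1 and put on the log2 scale. A probe entered the tests of a region when its detection p-value was at most 0.2 on all 3 arrays of at least 1 group. Each drug was set against vehicle within a region on 12 arrays with limma 3.58.1 (lmFit, eBayes) in R 4.3.3, with Benjamini-Hochberg adjustment over all probes tested. Drug by region was tested over the 36 arrays, with a random effect for each pair of pooled mice, and vehicle regions were contrasted in a fit of the 12 group means over all 36 arrays. This fit shares 1 estimate of the spread, so the NAc BeadChip difference enlarges the error of the probes that carry it. No array depth exists beyond signal over background, and 3 arrays a group limit the precision. The tests across probes were checked on simulated data with independent noise for each probe and array. The simulated drug data held no BeadChip step, so the check does not cover drug tests on probes that carry one.

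The members, gene lists and tests were chosen with earlier results of these data known. Lists covered elongation, initiation, other TOP mRNAs, biogenesis, TOP regulators, ribosomal genes outside the rule, the mitochondrial ribosome, and markers of cell types and regions, each gene by its brightest tested probe. Members named in a drug comparison were up to 3 higher and 3 lower by size among those with an unadjusted p under 0.05 and no overlap of the pools, those named between regions up to 4 each way past an adjusted p of 0.05, and genes of known roles were named always. Some members that this rule names are not reported here. Further members are given where a comparison turned on them and were chosen after their values were seen. Naming members by highest and lowest signal was dropped, since levels of different probes are not comparable. The fit with the BeadChip as a term, and fits without single doubted arrays, were added after the data had been seen. Alternatives were neqc, median centring, other detection filters, a BeadChip block, a replicate block, brightness as a covariate, the methods' Tukey test, 1 probe per gene, and leaving out each pool. All 68 member symbols matched RefSeq, 66 as current symbols and 2 through synonyms. Promoter sequences and gene coordinates are RefSeq's for GRCm38.p6; the position of each probe within its gene was not analysed here. The matplotlib version was 3.10.9 under Python 3.11.15.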

Additional observations from a re-analysis of the deposited data

How the results depend on the processing

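The 9 drug comparisons kept 0 members at an adjusted p under 0.05 under every alternative but one: median centring, in which SAHA in HIP had 45. The counts at an unadjusted p under 0.05 moved with the settings, and most were small. Counts of the region F test are also at an unadjusted p under 0.05, whereas those between regions and between BeadChips are at an adjusted p under 0.05. All counts of this section are given without the share of all probes, so a move of the members alone cannot be told from one of all probes. With neqc the drug counts were 1 (SAHA, PFC), 4 (CI-994, PFC), 1 (Cpd-60, NAc), 0 (CI-994, NAc), 2 (Cpd-60, HIP), 3 (SAHA, HIP) and 3 (CI-994, HIP). The region F test then gave 0 for Cpd-60 and 1 for SAHA, and 10 members were lower on the second NAc BeadChip. With median centring the drug counts were 0 (Cpd-60, PFC), 1 (CI-994, PFC), 0, 1 and 0 (Cpd-60, SAHA and CI-994, NAc), and 3, 66 and 3 (Cpd-60, SAHA and CI-994, HIP). The medians that moved were then 0.053 (Cpd-60, PFC), 0.148 (SAHA, PFC), 0.179 and 0.202 (SAHA and CI-994, NAc) and −0.515 (SAHA, HIP), where all probes shifted by 0.067 (SAHA, PFC), 0.081 and 0.092 (NAc) and −0.189. At an adjusted p under 0.05 median centring also gave 11 members for HIP against PFC (median 0.291), 1 for NAc against PFC, 1 for HIP against NAc (median 0.116), 4 higher and 0 lower on the second NAc BeadChip and 1 lower on that of HIP. It reversed 3 genes of SAHA in HIP: Rpl24 (−0.294), Rps15a (−0.247) and Rplp0 (−0.0508). Cpd-60 in NAc had 1 member with a detection p of at most 0.01, 6 without a filter and 6 with brightness as a covariate, which gave 5 for SAHA in HIP. With the BeadChip as a term the counts were 6 (Cpd-60, NAc), 6 (SAHA, NAc) and 6 (SAHA, HIP), and 1 for the CI-994 region F test. Tukey's test gave 1 (SAHA, PFC), 1 (Cpd-60, NAc) and 2 (SAHA, HIP), and 1 probe per gene gave 6 (CI-994, PFC), 1 (Cpd-60, NAc) and 1 (SAHA, NAc). The cause of these moves was not tested.

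Leaving out 1 pool at a time, the counts ran from 2 to 9 (Cpd-60, PFC; 9 without Cpd-60 3, 4 without Vehicle 3), 2 to 6 (SAHA, PFC; 2 without Vehicle 1 or SAHA 2), 6 to 13 (CI-994, PFC; 6 without Vehicle 2), 1 to 7 (Cpd-60, NAc; 1 without Vehicle 1, 7 without Vehicle 3, 5 without SAHA 2), 0 to 6 (SAHA, NAc; 0 without Vehicle 1, 6 without Vehicle 3 or SAHA 2) and 1 to 11 (CI-994, NAc; 1 without CI-994 2, 2 without Vehicle 2, 11 without Vehicle 3). In HIP they ran from 3 to 9 (Cpd-60; 3 without Vehicle 1), 5 to 17 (SAHA; 7 without Vehicle 1, 5 without Vehicle 2, 17 without Cpd-60 3, 6 without SAHA 3) and 4 to 10 (CI-994; 10 without CI-994 3). The CI-994 median in NAc ran from −0.011 (without CI-994 1) to 0.072. The region F test gave 1 to 2, 1 to 11 (SAHA; 11 without Vehicle 3, 1 without Vehicle 2, 3 without Vehicle 1, Cpd-60 1 or SAHA 3) and 1 to 2. At an adjusted p under 0.05 the region contrasts gave 11 to 20 (HIP against PFC; 11 without Vehicle 1 or 2), 10 to 16 (NAc against PFC; 10 without Vehicle 2, 12 without Vehicle 3) and 5 to 12 (HIP against NAc; 12 without Vehicle 3). The NAc BeadChip counts, also at an adjusted p under 0.05, ran from 14 to 18 higher and 8 to 17 lower (9 without CI-994 1, 8 without SAHA 1), and in HIP from 0 to 4 higher and 2 to 7 lower (both highest without CI-994 2).

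Within a region same-numbered pools are different mice, and those numbered 1 or 3 also share a BeadChip. Deviations of same-numbered pools correlated from −0.32 to 0.58 in PFC, −0.44 to 0.87 in NAc (median 0.425, against −0.357 for different numbers) and −0.17 to 0.66 in HIP. A replicate block there gave 5 (SAHA, NAc), 9 (CI-994, NAc) and 19 (SAHA, HIP) members at an unadjusted p under 0.05. These counts too are given without the share of all probes, so they are not read as a result about the members. Between regions the pools are the same mice, and the block left the region contrasts at 21, 24 and 6 members at an adjusted p under 0.05. The absence of the block left the F tests at 2, 5 and 2 members at an unadjusted p under 0.05.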
